A study of Homo sapiens with 38 samples.

Results

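The contacts of chromosome 2 with chromosomes 3 to 22 were taken from an in situ Hi-C map of RWPE-1, an immortalized line from normal prostate epithelium. Hi-C joins pieces of DNA that lie close together in the nucleus and counts the joined read pairs. The members were the 40 kb bins of chromosome 2 that begin a line of the contact list with a bin of those chromosomes: 5962 of the 6080 bins of chromosome 2, against 72036 bins on chromosomes 1 to 22. The cells were wild type and untreated, and 2 replicates were combined by the authors into 1 map, so no value below has a replicate error and no test was made. The series also holds RNA-seq of edited and transfected prostate lines, of which the 5 control libraries of the RWPE-1 deletion experiment are used here for gene activity. The contacts of chromosome 1 with the same targets are set beside those of chromosome 2 throughout.

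In those control libraries the basal keratin KRT5 had a median of 10093 TPM, KRT14 had 5760 TPM and KRT17 had 2434 TPM, where TPM is a transcript share corrected for length. The basal regulator TP63 had 80.8 TPM, and the luminal keratins KRT8 and KRT18 had 358 and 233 TPM. The luminal secretory gene KLK3 and the leukocyte gene PTPRC were listed at 0 in all 5 libraries. The mesenchymal gene VIM stood at 1845 TPM, and the matrix collagen COL1A1 at 7.15 TPM.

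Each chromosome fills its own territory in the nucleus, so contacts between chromosomes are rare and are spread thinly over many bin pairs. Active, gene-rich chromatin (the A compartment) tends to meet other active chromatin, and inactive, gene-poor chromatin (the B compartment) other inactive chromatin, within and between chromosomes. Small gene-rich chromosomes tend to lie near the centre of the nucleus. The number of read pairs also scales with the number of copies of both partners, so a gained or lost arm changes its contacts with every other chromosome alike, and a fusion of arms puts a large block of excess contacts between them.

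The map held 8634578 read pairs between chromosome 2 and chromosomes 3 to 22, spread over 8408350 bin pairs, of which 97.7% held a single read pair. Chromosome 2 had 32149401 read pairs within itself. A bin was used if its contacts lay between 0.25 and 3 times the median of its arm, which left 5897 bins of chromosome 2 and 54753 target bins and 98.4% of the read pairs. A used bin of chromosome 2 had a median of 1363 read pairs with the targets. Contact density is given as read pairs per 10000 usable bin pairs, and intervals are exact 95% Poisson intervals that cover counting error only.

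Chromosome 2 met the 20 other autosomes unevenly. The density over all of them was 263 for chromosome 2 and 391 for chromosome 1. Chromosome 20 was met most by chromosome 2, at 415 (interval 414 to 416), and chromosome 18 least, at 143 (142 to 144). Between them, from high to low, chromosome 9 stood at 345, chromosome 5 at 329.8, chromosome 17 at 329, chromosome 10 at 320.5, chromosome 15 at 304 and chromosome 19 at 301. A middle group ran from 271 for chromosome 16 through chromosomes 14, 6, 11, 12 and 21 to 245 for chromosome 13. Chromosomes 8 (222), 7 (221), 4 (215), 3 (199) and 22 (162) made up the low end with chromosome 18. Neighbours such as chromosomes 5 and 17, or 8 and 7, lay closer than 1 unit of density apart.

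This order did not follow gene density alone. Across the 20 chromosomes the rank correlation of density with protein-coding genes per usable Mb was 0.43 (Pearson r 0.24), and with usable length it was -0.14. The points share 1 map and 1 set of chromosome 2 bins. The most gene-dense target, chromosome 19 with 26.3 coding genes per Mb, ranked below the gene-poor chromosome 5 with 5.15. Chromosome 22, with 13.4 coding genes per Mb, ranked second from the bottom.

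**Figure D1:**
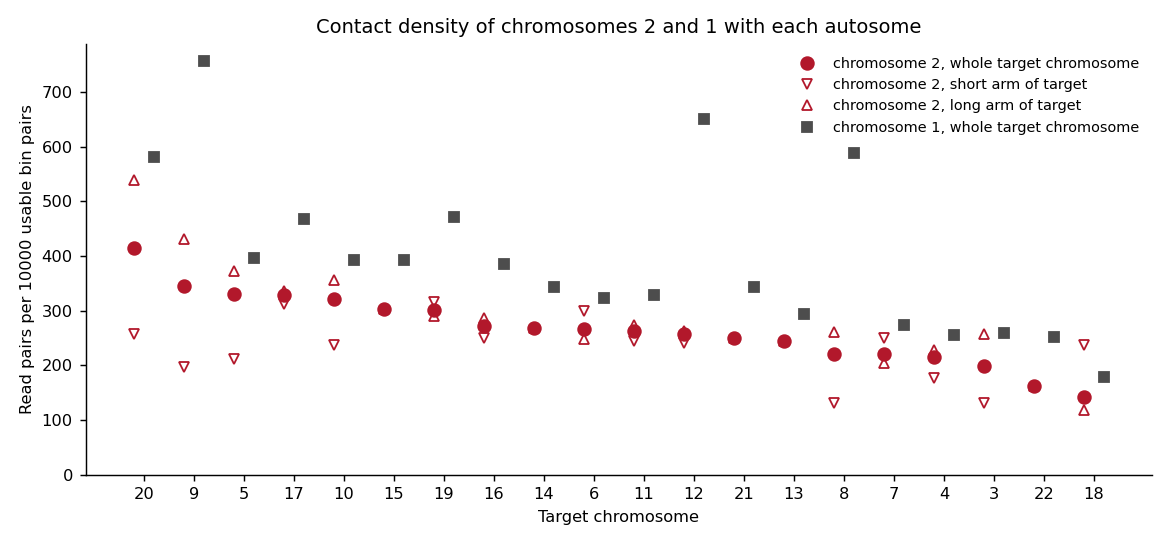
Contact density (read pairs per 10000 usable bin pairs) of each target chromosome, ordered by its density with chromosome 2. Circles are chromosome 2 with whole targets, triangles are chromosome 2 with their short and long arms, and squares are chromosome 1; the long arm of chromosome 20 reached 539 and chromosome 18 stood at 143, and chromosome 1 stood far above chromosome 2 at chromosomes 8, 9 and 12.

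Much of the unevenness lay between the arms of single targets. The 4 arms with the highest density were 20q at 539, 9q at 431, 5q at 372 and 10q at 356. The 4 lowest were 18q at 119, 8p at 131, 3p at 132 and 22q at 162. The largest contrasts within a chromosome were on chromosome 9, where the long arm was met 2.19 times as densely as the short arm, and on chromosome 20, at 2.10 times. Chromosome 8 showed 1.99 times, and chromosome 18 went the other way, with its long arm at 0.501 of its short arm. Chromosome 3, which is gene-poor on the whole, had 257 on its long arm and 132 on its short arm.

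The same contrasts were seen from both arms of chromosome 2. For chromosome 20 the long over short arm ratio was 2.07 from the short arm of chromosome 2 and 2.12 from its long arm. For chromosome 18 these ratios were 0.486 and 0.512, and for chromosome 3 they were 1.93 and 1.97. Bins of chromosome 2 in the A-like class gave 1.97 for chromosome 3 and bins in the B-like class 1.93. For chromosome 20 the classes stood further apart, at 2.43 from A-like and 1.76 from B-like bins. Read from chromosome 1, the arm ratio was 2.23 for chromosome 20, 2.13 for chromosome 3 and 0.492 for chromosome 18, but 4.36 for chromosome 9 and 4.58 for chromosome 8.

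To set compartment aside, each 2 Mb target window was compared with windows that chromosome 2 met in the same A-like to B-like proportion. A-like and B-like bins of chromosome 2 were told apart from contacts within the chromosome, with the sign set by chromosome 19, so the place of chromosome 19 is fixed by that choice. Of the usable bins, 41.6% of the short arm and 39.4% of the long arm were A-like. Matched density is the log2 ratio of a window to the median of the windows in the same of 10 equal groups of the A over B ratio. Over 1112 windows the median of a group ran from 164 for the most B-like to 375 for the most A-like.

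Matched density is described at 3 levels, named near 0, low and high. Of 40 arms or parts of arms, 28 lay near 0, with medians of -0.13 to 0.15, and held 72.1% of the usable target length. A low level of 7 parts had medians of -1.02 to -0.79 and held 13.1% of the length. A high level of 5 parts had medians of 0.56 to 0.90 and held 14.8%. Cutting arms at steps of 0.5 or more helps to part these medians, since uncut 4p had a median of -0.28 and uncut 10q one of 0.48, and single windows of different levels overlapped. Windows of the low level had an SD of 0.16, those near 0 an SD of 0.20 and those of the high level an SD of 0.21.

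The low parts were the whole of 3p, 8p, 18q and 22q, the first 20 Mb of 4p, the first 10 Mb of 9p and 7q from 128 Mb on. Chromosome 2 met them at 0.545 (3p), 0.511 (8p), 0.518 (18q), 0.494 (22q), 0.511 (4p), 0.58 (9p) and 0.56 (7q) times the density of their matched windows. The high parts were 5q at 1.48 times, 9q at 1.57 times, 20q at 1.86 times, 8q from 122 Mb at 1.52 times and 10q from 66 Mb at 1.53 times. Within 4p, matched density was higher by 0.86 after 20 Mb than before it, and within 9p by 0.72 after 10 Mb. On 7q it was lower by 0.83 after 128 Mb (a difference of -0.83). On 8q and 10q it was higher by 0.64 after 122 Mb and by 0.59 after 66 Mb. In the other arms with enough windows to look at, the step was below 0.5.

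These levels were alike for both classes of chromosome 2 bins, which matching by the A over B ratio largely fixes in advance. On 3p, matched density was -0.87 from A-like bins and -0.88 from B-like bins. On 20q it was 0.90 and 0.91, and on 18q -0.95 and -0.96. Over 919 windows outside chromosomes 8, 9 and 12, matched density read from chromosome 2 and from chromosome 1 had a Pearson r of 0.889 and a rank correlation of 0.852. The 2 readings share the target bins and the library but no bin pair. Chromosome 1 gave -0.92 for 3p, -0.94 for 8p and 0.90 for 20q. It differed at 8q from 122 Mb, where the matched density was 0.61 with chromosome 2 and 2.35 with chromosome 1, and at 12p, where it was -0.06 with chromosome 2 and 1.65 with chromosome 1. On 9q it was 0.66 with chromosome 2 and 1.42 with chromosome 1. On 12q it was 0.02 with chromosome 2 and 0.53 with chromosome 1, and on 8q from 46 to 122 Mb -0.03 with chromosome 2 and 0.40 with chromosome 1. Copy number was not measured in these files, and its part in the levels was not tested.

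**Figure D2:**
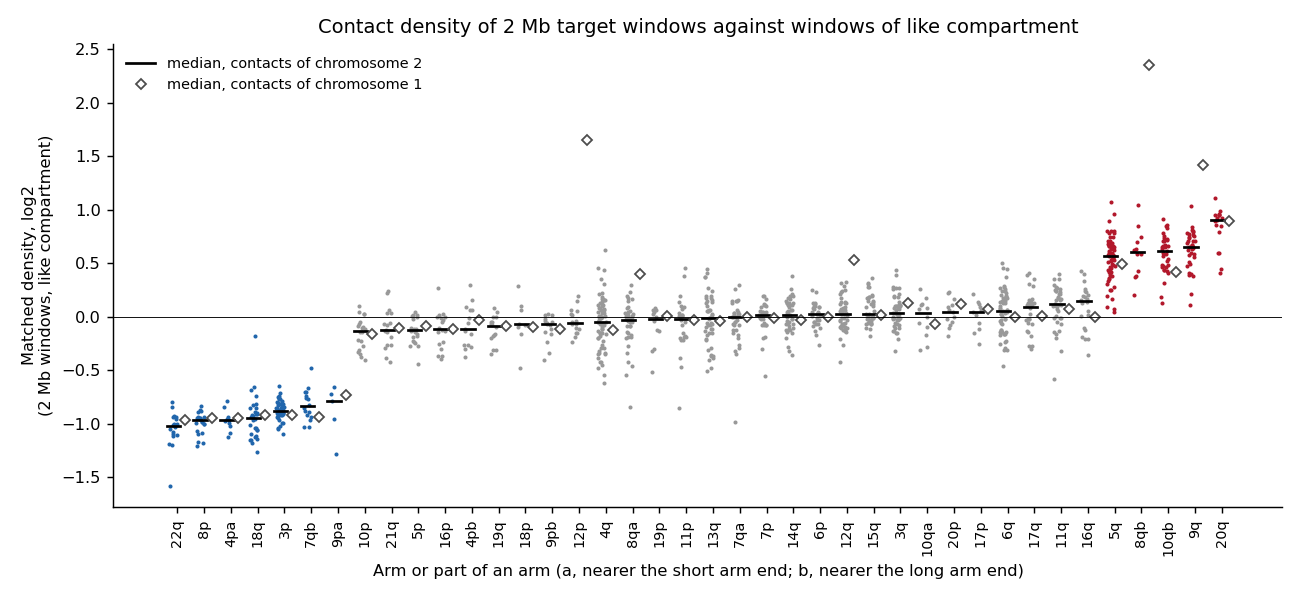
Matched density (log2) of each 2 Mb target window, in arms or parts of arms ordered by their median. Dots are windows met by chromosome 2, black lines their medians and diamonds the medians read from chromosome 1; 7 parts lie near -0.9, 28 near 0 and 5 at 0.56 or above.

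Chromosome 2 itself showed no step of that size. Its own 2 Mb windows were compared with windows of the same of 5 equal groups of its compartment ranking. The cut that parted the long arm most lay at 198 Mb, with matched density higher by 0.26 beyond it, and by 0.29 when read from contacts with chromosome 1. On the short arm that cut lay at 12 Mb, with matched density higher by 0.13 beyond it. Read from contacts with chromosome 1 it lay at 36 Mb instead, with a difference of -0.11. The short arm of chromosome 2 was met at 279 and the long arm at 254, a ratio of 1.10 (log2 0.14). The ratio was 1.08 in A-like bins and 1.10 in B-like bins. Divided by the contacts of the same bins with chromosome 1, the log2 ratio came to 0.05.

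Relative contact sets chromosome 2 against chromosome 1 at the same target: it is the log2 ratio of their densities, less the same ratio over all 20 targets. It was highest for chromosome 4 (0.33), chromosome 13 (0.31) and chromosome 5 (0.30), all gene-poor. Among targets outside 8, 9 and 12 it was lowest for the gene-dense chromosomes 19 (-0.07) and 22 (-0.06), followed by 17 (0.07), 16 (0.07) and 20 (0.09). Over those 17 targets its rank correlation with coding genes per Mb was -0.85, with the same chromosome 1 and chromosome 2 bins behind every point. That order depended on the arm of chromosome 1 used. Against the short arm alone the rank correlation was -0.88, and the values were 0.26 for chromosome 4, 0.20 for chromosome 13, -0.46 for chromosome 19 and -0.47 for chromosome 22. Against the long arm alone the rank correlation was 0.11, and the values were 0.39, 0.40, 0.37 and 0.41 for the same 4 chromosomes. Chromosomes 8 (-0.84), 12 (-0.77) and 9 (-0.56) had the lowest values of all. At chromosomes 8, 12 and 9 the density of chromosome 2 was 222, 257 and 345, while that of chromosome 1 was 588, 649.6 and 756. Without them the pooled ratio moved by enough to bring chromosome 4 to 0.11.

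Chromosome 2 met gene-dense chromosomes more densely than gene-poor ones. The density with chromosomes 16, 17, 19, 20 and 22 together was 308, and with chromosomes 3, 4, 5, 13 and 18 it was 235, a log2 ratio of 0.39. This preference was 0.50 for the short arm of chromosome 2 and 0.31 for its long arm. It was 0.65 for A-like bins and 0.07 for B-like bins. For chromosome 1 it was 0.63. Chromosome 19, which set the sign of the A-like class, is in the gene-dense set. The direction of the split between A-like and B-like bins was thus partly fixed by that choice. Of the high parts, 20q is in the gene-dense set and 5q in the gene-poor one, and the low parts include 22q from the gene-dense set and 3p and 18q from the gene-poor one; how far these levels move the preference was not tested.

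The mix of chromosome 2 bins that a target met went with its gene density. The ratio of A-like to B-like contacts was highest for chromosomes 22 (log2 1.43), 19 (1.36) and 17 (1.30). It was lowest for chromosomes 18 (0.42), 4 (0.42), 13 (0.52) and 8 (0.54). Across the 20 chromosomes its rank correlation was 0.90 with coding genes per Mb and 0.88 with genes expressed in the control libraries per Mb. Chromosome 19, which set the sign of the A-like class, is among these points. Chromosome 22 thus had a low total (162) and the most A-weighted contacts, with 260 from A-like and 96.3 from B-like bins. Window by window, the A over B ratio read from chromosome 2 and from chromosome 1 had a Pearson r of 0.979 over 919 windows.

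Like met like across chromosomes. Chromosome 2 windows were ranked into 5 equal groups by the compartment vector from contacts within the chromosome. Target windows were ranked by their A over B ratio with chromosome 1, which chromosome 2 contacts did not make. The direction of each ranking was set by contacts with chromosome 19, which is among the targets. The direction of the pattern was thus partly fixed by that choice. The most A-like groups of both sides held 1.47 times the read pairs expected from the margins. The most B-like groups of both sides held 1.48 times. The most A-like windows of chromosome 2 met the most B-like targets at 0.589 of the expected number, and its most B-like windows met the most A-like targets at 0.597. The 4 corners rest on 145680 or more read pairs each.

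**Figure D3:**
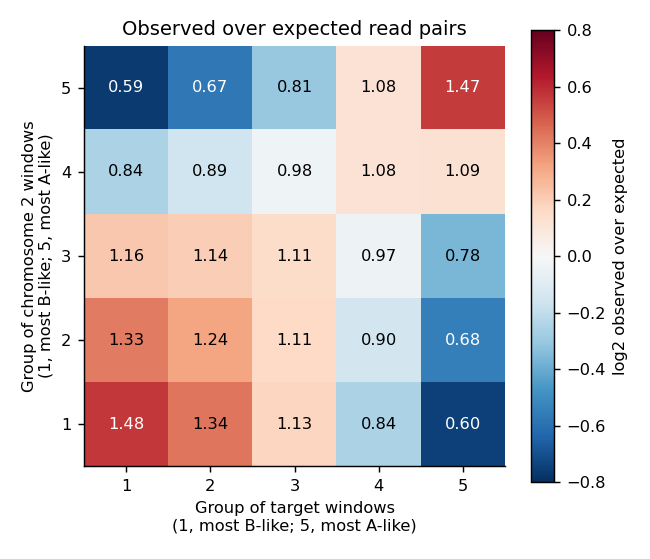
Observed over expected read pairs between 5 groups of chromosome 2 windows (vertical) and 5 groups of target windows outside chromosomes 8, 9 and 12 (horizontal), each from most B-like to most A-like; colour is the log2 of the printed ratio. The like corners stand at 1.48 and 1.47 and the unlike corners at 0.59 and 0.60.

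Along chromosome 2, the 119 windows of 2 Mb with enough usable bins ranged in density from 126 to 486, with a median of 249. The 5 densest began at 242 Mb (486), 26 Mb (447), 232 Mb (437), 238 Mb (415) and 70 Mb (409), and all of them were A-like throughout. The window at 242 Mb is cut short by the end of the chromosome and of the list and rests on 20 usable bins. The 5 sparsest began at 184 Mb (126), 154 Mb (127), 194 Mb (133), 140 Mb (136) and 142 Mb (140), and none of them held an A-like bin. The 32 windows with at least 90 percent of A-like bins had a median density of 348, and the 53 with at most 10 percent had 199.

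The gene-dense preference of the windows ran from -0.31 to 1.51 with a median of 0.22, and was above 0 in 88 of 119. It was highest in the windows that began at 242 Mb (1.51), 240 Mb (1.31), 96 Mb (1.27), 26 Mb (1.26), 70 Mb (1.03) and 28 Mb (1.00). At 242 Mb the density was 921 with the gene-dense and 323 with the gene-poor chromosomes. The preference was lowest in windows of the long arm that began at 212 Mb (-0.31), 210 Mb (-0.30), 194 Mb (-0.26), 214 Mb (-0.25), 228 Mb (-0.22) and 188 Mb (-0.20). At 212 Mb the density was 179 with the gene-dense and 222 with the gene-poor chromosomes. Counting error on these log2 values was at most 0.05.

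Compartment and place on the arm both went with the preference. Its rank correlation with the share of A-like bins was 0.73 over the 119 windows, which share all their targets. The sign of that correlation was partly fixed, since chromosome 19 set the A-like class and is in the gene-dense set. Among windows with at most 10 percent A-like bins on the long arm, the preference was lower the farther the window lay from the centromere, with a rank correlation of -0.92 over 33 windows. The 14 of them within 60 Mb had a median of 0.20, and the 19 beyond 60 Mb a median of -0.15, with all 19 below 0. On the short arm the same relation was weaker, with a rank correlation of -0.36 over 20 windows, and 1 of the 9 windows beyond 60 Mb was below 0. Read instead as the log2 ratio of read pairs with the most A-like to those with the most B-like of 5 equal groups of target windows, the rank correlation with distance was -0.47 on the long arm and 0.42 on the short arm.

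**Figure D4:**
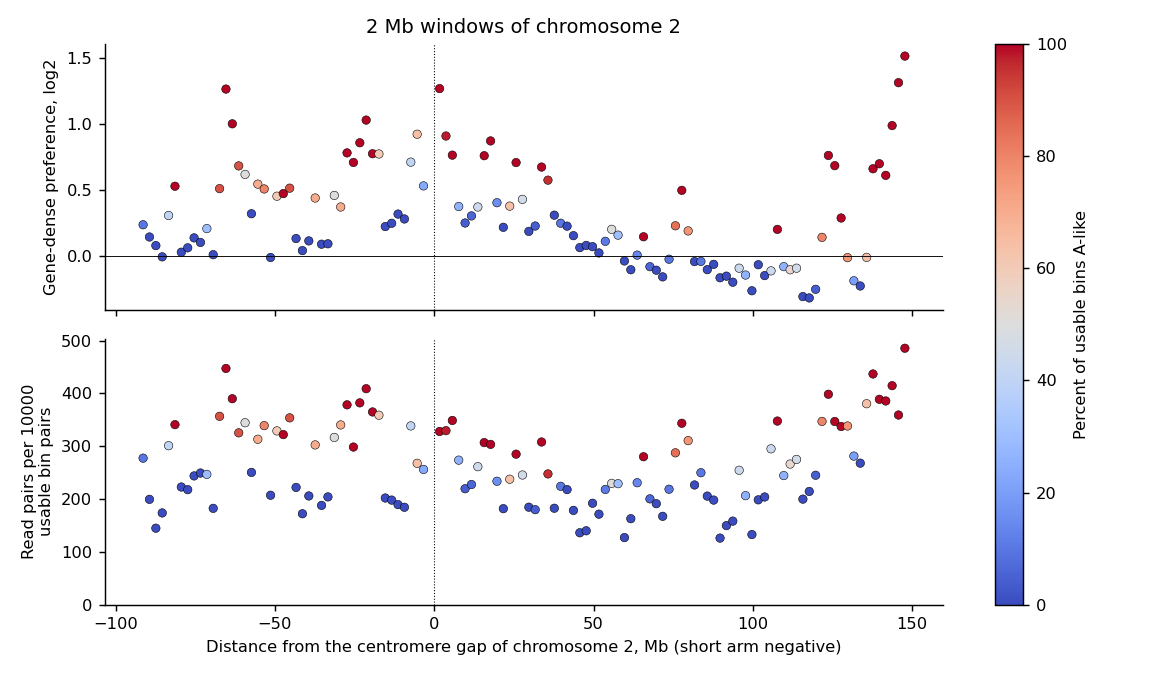
Gene-dense preference (upper, log2) and contact density (lower, read pairs per 10000 usable bin pairs) of the 2 Mb windows of chromosome 2 by distance from its centromere gap in Mb, with the short arm negative. Colour gives the percent of A-like bins; B-like windows of the long arm pass below 0 beyond about 60 Mb, and the windows at the long arm end stand highest, up to 1.51 and 486.

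The long arm of chromosome 2 met the longer target arms relatively more, and its short arm the shorter ones. The ratio of long arm to short arm density, taken relative to all targets on the log2 scale, was highest for 5q (0.16), 4q (0.15) and 9q (0.14). It was lowest for 20p (-0.24), 5p (-0.23), 21q (-0.22) and 20q (-0.21). Chromosome 5 shows the contrast within 1 chromosome. Its long arm was met at 374 by the long arm of chromosome 2 and at 368 by the short arm, and its short arm at 191 by the long arm and at 247 by the short arm. Over 35 target arms the ratio had a rank correlation of 0.86 with the usable length of the arm (Pearson r 0.86). Within A-like bins the rank correlation was 0.82, and within B-like bins 0.84. The 14 arms above 0 had a median usable length of 95.5 Mb and the 21 below 0 a median of 38.4 Mb.

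Contacts were also sorted by distance from the centromere. Windows within 20 Mb of the centromere on both sides held 1.10 times the expected read pairs, and chromosome 2 windows within 20 Mb with targets beyond 60 Mb held 0.874 times. Windows beyond 60 Mb on both sides held 1.08 times, and chromosome 2 windows beyond 60 Mb with targets within 20 Mb held 0.942 times. The last 2 values were 1.10 and 0.923 for the long arm and 1.01 and 0.994 for the short arm. With the expected number adjusted for compartment rank the 4 values over both arms were 1.10, 0.876, 1.08 and 0.942, with targets on chromosomes 8, 9 and 12 not adjusted.

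**Figure D5:**
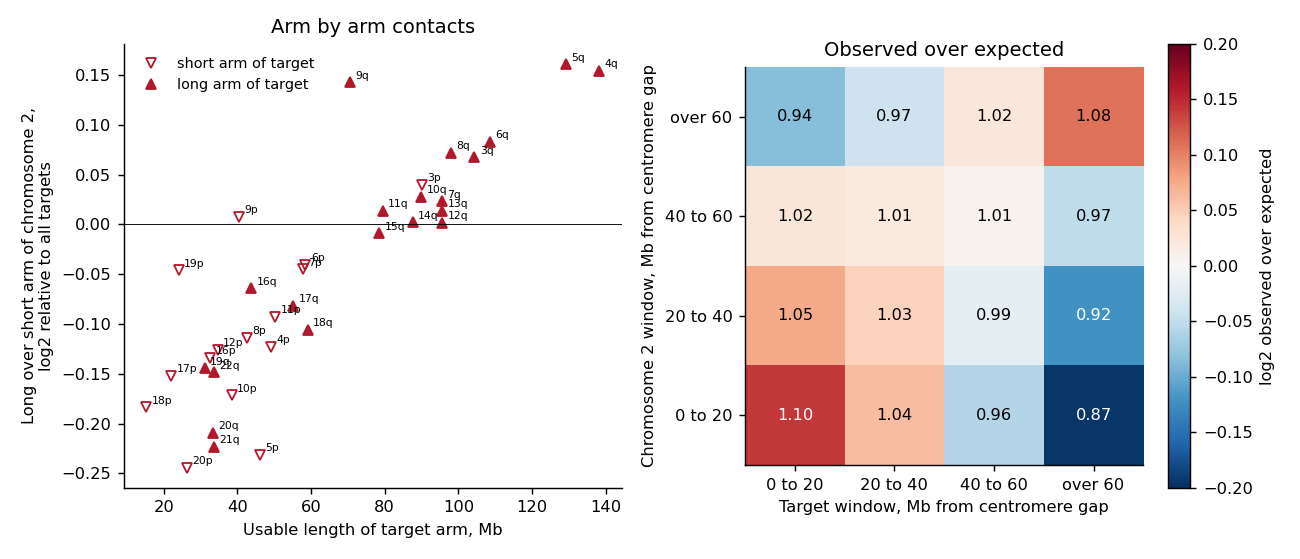
Left, long over short arm contact of chromosome 2 with each target arm (log2, relative to all targets) by the usable length of that arm in Mb. Right, observed over expected read pairs by distance from the centromere gap on chromosome 2 (vertical) and on the target (horizontal), in Mb; 5q and 4q stand at 0.16 and 0.15, 20p at -0.24, and the like corners of the grid at 1.10 and 1.08.

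The long arm end and the centromere of chromosome 2 met their like. Blocks with both sides within 10 Mb of an end held 1.30 times the expected read pairs (log2 0.37, from 167987 read pairs). The long arm end of chromosome 2 stood at 1.51 times and the short arm end at 0.952 times. Adjusted for compartment rank these were 1.32 for the long arm end and 1.05 for the short arm end, with targets on chromosomes 8, 9 and 12 not adjusted. Blocks with both sides within 10 Mb of a centromere held 1.15 times the expected number, with 1.22 for the short arm side of chromosome 2 and 1.11 for the long arm side. The long arm end met centromeres at 0.802 of the expected number.

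Outlying blocks were few. Of 135677 blocks of 2 Mb by 2 Mb with at least 10 read pairs expected, 1065 held 2 or more times the expected number, which is 0.785%. A further 5362 held 0.5 times or less, which is 3.95%. In the same table of chromosome 1, 4146 of 129568 blocks were higher (3.2%) and 12120 lower (9.35%). Without chromosomes 8, 9 and 12 the chromosome 1 table had 1357 higher blocks, or 1.27%, and 6893 lower ones, or 6.45%. The 2 tables were filtered unlike each other. Targets and chromosome 1 bins were both chosen as usable by their contacts with chromosome 2. Bins overloaded in contacts between chromosome 1 and the targets could thus stay in. The highest block stood at 83.5 times the expected number for chromosome 1 (70.2 without chromosomes 8, 9 and 12) and 15.8 times for chromosome 2. With the expected number adjusted for compartment rank, an alternative chosen after seeing the data, 373 blocks of chromosome 2 were higher, and 322 of them were among the 1065. Of the 373, 150 lay on chromosomes 8, 9 and 12, whose expected numbers were not adjusted. On the other chromosomes 223 blocks were higher after adjustment, against 915 before it, and 172 were higher both times.

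Pairs of whole arms spread less for chromosome 2 than for chromosome 1. Over 70 pairs of arms, observed over expected ran from 0.929 (2q with 20p) to 1.10 (2p with 20p). For chromosome 1 the same ratio ran from 0.331 (1p with 12p) to 1.58 (1q with 12p). The 1065 higher blocks of chromosome 2 formed 587 groups of touching blocks, of which 456 were single blocks. The largest group had 33 blocks, against 183 blocks for the largest of chromosome 1, which lay on chromosome 12.

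Higher blocks piled up on a few windows of chromosome 2. The 5 windows with most of them held 37.4% of the 1065, and 50 windows held none. These were the windows that began at 240 Mb (100 blocks), 242 Mb (94), 238 Mb (83), 26 Mb (80) and 236 Mb (41). The same windows also held many lower blocks, at 436, 406, 321, 239 and 165 in that order. The largest group joined 232 to 244 Mb of chromosome 2 with 128 to 142 Mb of chromosome 9, at 2.73 times the expected number from 14827 read pairs. The next joined 234 to 244 Mb with chromosome 15 from 64 to 80 Mb (31 blocks, 2.32 times) and 232 to 244 Mb with chromosome 5 from 172 to 182 Mb (23 blocks, 2.51 times). Adjusted for compartment rank these came to 1.57 times for chromosome 15 and 1.74 times for chromosome 5. Chromosomes 8, 9 and 12, which have large blocks of contacts with chromosome 1, were left out of the ranking and have no adjusted value. A group with chromosome 8 from 142 to 148 Mb held 2.98 times the expected number over 14 blocks. Of 1783 end to end blocks tested 224 were higher, and of 1637 centromere to centromere blocks 35 were. Lower blocks numbered 186 end to end and 14 centromere to centromere. Over all 135677 blocks, 1065 were higher (0.785%) and 5362 lower (3.95%). End to end blocks exceeded the share over all blocks for both higher and lower calls. Centromere to centromere blocks exceeded it for higher calls and fell below it for lower ones.

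The 10 groups with the highest ratio were small, with 1 or 2 blocks each. The window at 132 to 134 Mb of chromosome 2 met chromosome 18 at 14 to 16 Mb with 202 read pairs, 15.8 times the expected number (interval 13.7 to 18.2). The same window met chromosome 21 at 14 to 16 Mb at 9.93 times, chromosome 22 at 16 to 18 Mb at 6.59 times and chromosome 21 at 28 to 30 Mb at 5.09 times. The window at 94 to 96 Mb met chromosome 14 at 28 to 30 Mb at 8.42 times. Chromosome 2 at 90 to 92 Mb met chromosome 22 at 24 to 26 Mb at 6.14 times, and at 88 to 92 Mb it met chromosome 10 at 42 to 44 Mb at 5.17 times. The windows at 90 to 92 Mb and 94 to 96 Mb were not among the 119 with enough usable bins. The window at 114 to 116 Mb met chromosome 9 at 0 to 4 Mb at 5.21 times and at 66 to 68 Mb at 5.17 times. The remaining group of the top 10 joined 162 to 164 Mb with chromosome 21 at 8 to 10 Mb, at 5.31 times, and 62.9% of its read pairs lay in 1 bin pair.

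Several of these rest on single bin pairs that hold many read pairs. Without bin pairs of 10 or more read pairs, the group with chromosome 22 at 24 to 26 Mb came to 1.92 times. The group named last above, with chromosome 21, came to 1.97 times. The group with chromosome 18 kept 14.9 times, since its 202 read pairs were spread over 113 bin pairs.

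Bin pairs of 10 or more read pairs numbered 444 in the whole set, held 0.187% of its read pairs and involved 78 bins of chromosome 2. Of these bin pairs 43.7% lay at 132 to 134 Mb, 39.2% at 88 to 98 Mb around the centromere and 7.43% at 114 to 116 Mb. The heaviest joined chr2:133000001-133040000 with chr21:9800001-9840000 (GRCh37) and held 1958 read pairs. That bin of chromosome 2 had 22044 read pairs with the targets, 16.1 times the median bin. The next joined chr2:92240001-92280000 with chr10:42360001-42400000, with 651 read pairs, and chr2:91760001-91800000 with chr4:4200001-4240000, with 544. All of the 10 heaviest bin pairs lay in bins above the limit of coverage and entered none of the values taken over usable bins. Reads from near-identical repeats around centromeres can be placed at the wrong copy. How far they made these pairs, or the highest blocks of the same windows, was not tested.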

How the data were processed

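Per the labels' protocols, in situ Hi-C of RWPE-1 was made in duplicate with MboI, and the authors deposited the raw count of read pairs per pair of 40 kb bins, with replicates combined. The submitters' processing notes name HiC-Pro 2.8.0 and the build GRCh37. The list as held here ends within chromosome 2, so it has no contacts between pairs of chromosomes from 3 on, and none were analysed. TPM values were deposited by the authors, and which tool made them is not given in the sources used here.

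Densities were computed in Python 3.11.15 with numpy 2.4.6, pandas 2.3.3 and scipy 1.17.1. Compartment classes came from the first eigenvector of the correlation of distance-corrected contacts within each arm, in 200 kb windows. The centromere gap was the last run of at least 25 empty bins. Windows described one by one or ranked by compartment needed at least 20 usable bins. Blocks, and sums over blocks by arm, end, centromere or distance, had no such minimum. Called blocks needed only 10 read pairs expected. Parts of arms were cut where the medians of at least 5 windows on each side differed by 0.5 or more. Ends and centromeres were windows within 10 Mb. Expected read pairs came from row and column sums of the table. Coding genes per chromosome were counted in RefSeq (GRCh38.p14), and expressed genes had at least 1 TPM in all 5 control libraries; 11857 of 12694 matched a chromosome by symbol. Of the markers listed for the cell line, 15 of 16 matched, and 1 of them is not reported here. No genome or annotation of GRCh37 was at hand, so no gene was placed in a bin and the loci fixed for naming were not analysed here. The procedure was tested on simulated data.

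Targets named were all 20 chromosomes, the 4 highest and 4 lowest arms, the 4 chromosomes with the largest arm contrast, the 6 highest and 6 lowest windows in preference, the 5 highest and lowest in density, the 10 highest block groups and the heaviest bin pairs. The parts of arms, the centromere distance classes and the largest block groups were described after their values were seen. Members, lists and measures were chosen with earlier results of these data known.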

Additional observations from a re-analysis of the deposited data

Results flagged for a closer look

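Contacts of chromosome 2 with chromosome X lie outside the 20 autosomes compared and form a signal in data that no comparison above used. Their density was 100.5 read pairs per 10000 usable bin pairs for chromosome 2, from 216799 read pairs, and 120.4 for chromosome 1. For chromosome 2 this was 0.382 of its density with all 20 autosomes together and below its density with each of them.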

How the results depend on the processing

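No paired analysis was possible because the authors combined both replicates into 1 map; for the same reason no replicate could be left out. Depth limits single blocks more than chromosomes: the median block had 56.1 read pairs expected, and most bin pairs held 1. Of 72 alternative values 26 moved by no more than counting error, or a count by no more than 1.5 times, 43 moved by more with their sign kept, and 3 changed sign; the cause was not tested.

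With a usable minimum of 0.5 times the median, relative contact of chromosome 4 was 0.34, the gene-dense preference 0.40 and short over long arm 0.14. Without the upper limit these were 0.34, 0.41 and 0.14, and chromosome 20 over 18 was 1.55, against 1.54 in the report. Without bin pairs of 10 or more read pairs, relative contact of chromosome 4 was 0.32. It was 0.26 against the short arm of chromosome 1, 0.39 against the long arm and 0.11 without chromosomes 8, 9 and 12. The gene-dense preference was 0.46 with chromosomes 17, 19 and 22 over 4, 13 and 18, and -0.24 after division by that of chromosome 1. Against the long arm of chromosome 1, relative contact of chromosomes 19 and 22 changed sign to 0.37 and 0.41. Short over long arm came to 0.050 after division by contacts with chromosome 1. Higher blocks numbered 4547 at 1 Mb, 109 at 5 Mb, 9781 at a threshold of 1.5, 107 at 3, 8182 with the expected number from contacts with chromosome 1, and 373 with compartment rank (223 without chromosomes 8, 9 and 12, which were not adjusted). End with end contact was 0.67 at 5 Mb, 0.094 at 20 Mb and 0.30 with compartment rank.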
